A study of Mus musculus with 577 samples.

Results

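The 10 genes described here belong to ovarian steroid synthesis and its gonadotropin control: Cyp11a1, Cyp17a1, Cyp19a1, Star, Hsd3b1, Hsd17b1, Lhcgr, Fshr, Scarb1 and Fdx1. They were chosen by symbol, and each had 1 row in the tables, so that 10 of 22060 protein-coding genes are described. Of 577 samples in the series, 562 are libraries of these tables, and 559 were used after leaving out 3 cells that the authors had set apart for a mixed profile. The other samples are libraries of exons and junctions and were not used here. Levels are reads normalized to the total (RPM, per 1000000 reads) over protein-coding genes and, where averaged, log2 (RPM+1).

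Steroid hormones are made from cholesterol in a chain of steps. Scarb1, the receptor for high-density lipoprotein, takes up cholesterol, and Star carries it into the mitochondria, where Cyp11a1 cleaves its side chain with electrons passed on by the ferredoxin Fdx1. Hsd3b1 then makes progesterone, Cyp17a1 makes androgens, Cyp19a1 (aromatase) turns androgens into estrogens, and Hsd17b1 turns estrone into estradiol. In the ovary, theca cells outside the follicle's basement membrane carry the luteinizing hormone receptor Lhcgr and make androgens, whereas granulosa cells carry the follicle-stimulating hormone receptor Fshr and make estrogens. Granulosa cells at the wall of a large follicle also gain Lhcgr and Cyp11a1 before ovulation, and the cells next to the oocyte are kept in a different state by factors the oocyte secretes. Reads of Cyp11a1 or Lhcgr in a granulosa cell therefore have more than 1 known source, a late granulosa stage or theca RNA, and Cyp17a1 is the member best known as a theca gene.

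Promoter sequences are given for Hsd3b1, the enzyme gene with the largest median difference by position over the single-cell data sets, and for both gonadotropin receptors. RefSeq promoters of build GRCm38.p6 were found for 6 of the 10 members, at 9 start sites, and none for Cyp17a1, Star, Hsd17b1 and Scarb1. The 250 bases before the start are printed 5′ to 3′ on the strand of the gene, with matches to a searched motif in capitals: AGGTCA, the core of nuclear receptor sites, in Lhcgr, and GATAAG, the core of GATA factor sites, in Fshr (the second match is on the other strand). The windows lie at chr3:98859795-98860044 for Hsd3b1, chr17:88792015-88792264 for Lhcgr and chr17:89200676-89200925 for Fshr, all 3 on the minus strand and outside annotated exons.
Hsd3b1: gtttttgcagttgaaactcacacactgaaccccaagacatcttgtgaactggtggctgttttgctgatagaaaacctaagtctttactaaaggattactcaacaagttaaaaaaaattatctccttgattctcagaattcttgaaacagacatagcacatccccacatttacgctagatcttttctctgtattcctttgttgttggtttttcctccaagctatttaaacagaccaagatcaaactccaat
Lhcgr: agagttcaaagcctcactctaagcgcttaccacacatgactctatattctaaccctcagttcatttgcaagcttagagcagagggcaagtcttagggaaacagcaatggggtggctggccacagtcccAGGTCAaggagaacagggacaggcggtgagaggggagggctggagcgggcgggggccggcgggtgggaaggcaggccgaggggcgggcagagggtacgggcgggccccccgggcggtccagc
Fshr: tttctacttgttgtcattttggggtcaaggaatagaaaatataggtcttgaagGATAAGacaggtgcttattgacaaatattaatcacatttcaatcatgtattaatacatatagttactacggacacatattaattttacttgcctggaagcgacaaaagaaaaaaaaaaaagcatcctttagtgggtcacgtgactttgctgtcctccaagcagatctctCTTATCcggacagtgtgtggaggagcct

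Motifs were searched on both strands: AGGTCA, which overlaps NCAAGGNCA where the last N is T, was in 14.02% of 32851 promoters of that length, NCAAGGNCA (the longer site of NR5A receptors) in 5.51%, TGACGTCA (the cyclic AMP response element) in 1.55% and GATAAG in 6.55%. The match in Lhcgr was 122 to 117 bases before the start. Those in Fshr were 197 to 192 and 28 to 23 bases before it. Further AGGTCA matches were 28 to 23 bases before the second start of Cyp11a1 and 81 to 76 bases before the first start of Cyp19a1. The windows of Hsd3b1 and Fdx1 held none of the 4 motifs, and no member's window held NCAAGGNCA or TGACGTCA. A match is a description of letters and not a bound site.

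All 10 genes are annotated as protein-coding in GENCODE on GRCm38, and the counts are of reads within 10 kb of their 3′ ends. Cyp11a1 lies at chr9:58006411-58027023 and Star at chr8:25806555-25815982, both on the plus strand. Hsd17b1 lies on the same strand at chr11:101078411-101080527. The others are on the minus strand, Cyp17a1 at chr19:46667165-46673172, Cyp19a1 at chr9:54165937-54268110, Hsd3b1 at chr3:98852194-98859794, Lhcgr at chr17:88716481-88791990, Fshr at chr17:88984952-89200675, Scarb1 at chr5:125277087-125341094 and Fdx1 at chr9:51943306-51963556. Hsd17b1 shares its window with the 3′ end of Coasy on the same strand, so its reads are uncertain to that extent, as are those of Cyp17a1, with the long noncoding AC156982.1, and of Hsd3b1, with the pseudogenes Gm12431 and Gm12432, and neighbors on the opposite strand lie in the windows of Cyp11a1 (Ccdc33), Cyp17a1 (Wbp1l), Star (Ash2l) and Lhcgr (Gtf2a1l). Of the 3′-terminal 50-base words, 61 of 1643 of Cyp11a1 (3.71%) occurred exactly in transcripts of other genes, and none did for the other members. Hsd3b1 has close relatives, but in the non-neighboring pools it held 39262 reads against at most 46 for any of Hsd3b2 to Hsd3b6. In the neighboring cells by DRaqL-SMART-Seq v4 there were 69 reads of Hsd3b1 and 80 of Hsd3b3. Hsd3b7, a more distant relative, had 2413 reads in the non-neighboring pools and more reads than Hsd3b1 in 4 groups of neighboring cells, 487 against 69 by DRaqL-SMART-Seq v4, 416 against 291 by DRaqL-Smart-seq2, 150 against 65 after formalin and 189 against 61 in same-mouse laser-captured cells.

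Granulosa cells came from ovaries of 8-week-old female mice, and the labels class each cell as neighboring the oocyte or not. Most were cut by laser capture microdissection from alcohol-fixed, cresyl violet-stained frozen sections, lysed with or without DRaqL (lysis by denaturing detergents that are then quenched), and amplified by SC3-seq (31 neighboring and 26 non-neighboring cells), SMART-Seq v4 without DRaqL (17 and 17), DRaqL-SMART-Seq v4 (20 and 19), LCM-seq (17 and 20) or DRaqL-Smart-seq2 (15 and 19), and 12 and 12 cells came from sections fixed in formalin for 24 h, lysed by DRaqL with a protease step and amplified by Smart-seq2. In the same-mouse sets, both ovaries of 1 mouse in proestrus were used: 1 was sectioned (35 and 35 cells by DRaqL-Smart-seq2), and from the other, cells of cumulus-oocyte complexes of fully grown follicles were freshly dissociated in medium with dibutyryl-cAMP and amplified by Smart-seq2 (14 attached to the oocyte, called neighboring here, and 21 not). There were also 7 neighboring and 7 non-neighboring pools of about 10 cells of early antral follicles, 7 bulk samples of the granulosa layer of single sectioned follicles, oocytes, and mouse embryonic stem cells (mESCs) kept in 2iLIF, 45 freshly dissociated and 36 laser-captured.

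The paper states that the amplification methods it compared on ovarian sections shared 1 ovary, so such data sets are not repeats over mice. The labels name neither mouse nor follicle for the single cells, so each group of cells is 1 sample. Its values are given as mean ± SD over cells, with no test, and a difference was called by size alone, at 1 or more on the log2 scale for a gene with a mean of 4 or more in either position. Depth was 12748 to 6749468 reads in single granulosa cells and 3811945 to 8259281 in pools and bulk samples. The shallowest group was the dissociated neighboring cells, with a median of 87883.5 reads. Inha, which granulosa cells express, was read in 100% of the cells of every granulosa group and in 0% of fresh mESCs, and 1 dissociated non-neighboring cell (number 12) went against its label with 12.6 RPM of Inha, no Fshr and 4834 RPM of Aldh1a1. Reads of genes known from other cells differed by position in most data sets, and their source was not tested. The sum of 5 blood and immune genes had a median of 0 in both dissociated groups. It reached 49954 RPM in a neighboring and 12204 RPM in a non-neighboring dissociated cell. For oocyte genes in neighboring cells, the paper proposes exchange with the oocyte through gap junctions as most likely. By DRaqL-SC3-seq, the sum of 14 genes of the oocyte was at a median of 2943 RPM in neighboring cells and 64.2 RPM in the others, but in same-mouse laser-captured cells it was 350.0 against 124 RPM and in dissociated cells 157 against 155 RPM. At least 5 reads of 2 of the 3 connective tissue genes Col1a1, Col1a2 and Dcn, called collagen cells below, were found in 1 of 161 neighboring and 32 of 169 non-neighboring cells. Leaving such cells out, as is done below, was not planned. Of the 10 theca and interstitial genes chosen, 9 were measured, and Insl3 was not analysed here. The other 6 of the list were not alike: at least 5 reads were found in 3 neighboring and 40 non-neighboring cells for Acta2, 0 and 13 for Tcf21, 0 and 10 for Gli1, 21 and 79 for Aldh1a1 and 33 and 64 for Mgarp, but in 73 and 87 for Ptch1. By LCM-seq, Ptch1 was found in 13 of 17 neighboring and 11 of 20 non-neighboring cells.

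Over the 80 pairs of gene and data set, 16 were called higher and 2 lower. These counts stand beside what all genes did in the same cells. By DRaqL-SC3-seq 1 of the 4 members that passed the mean was called higher and 0 lower, where 21.7% of all genes with such means were called higher and 6.46% lower. By SMART-Seq v4 it was 0 and 1 of 4 (26.7% and 15.5% of all genes), and by DRaqL-SMART-Seq v4 5 and 0 of the 7 members that passed the mean (18.6% and 13%). LCM-seq gave 2 and 0 of 5 (8.23% and 21.9%) and DRaqL-Smart-seq2 2 and 0 of 5 (6.28% and 15.9%), so higher calls were there the less common kind among all genes.

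Formalin-fixed cells gave 1 and 1 of 4 (13.2% and 25.8%) and same-mouse laser-captured cells 1 and 0 of 3 (15% and 11.8%). In freshly dissociated cells 4 of 6 members were called higher and 0 lower, but so were 62.1% of all genes, with 2.78% lower, and the neighboring cells there were the shallower ones. The calls of Hsd3b1, Cyp19a1, Fshr and Fdx1 in that set are therefore read against a background that moved the same way. At 100000 reads or more per cell the differences of Cyp19a1, Fshr and Fdx1 were 3.09, 2.52 and 3.59.

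In single-cell means, Hsd3b1 was the member with the largest median difference by position over the 8 data sets (5.19), although Cyp11a1 and Cyp17a1 differed more in the fold changes of the pools below. By SMART-Seq v4 its difference of 0.26 was under those of Cyp11a1 (1.71), Cyp17a1 (1.53), Lhcgr (1.01), Scarb1 (0.98), Star (0.85) and Fdx1 (0.39). Hsd3b1 was higher in non-neighboring cells in all 8 single-cell data sets and passed the size call in 7 of them, with differences of 3.09 to 6.90 on the log2 scale there. By LCM-seq the lowest, median and highest levels were 2.41, 1053 and 6235 RPM in non-neighboring cells against 0, 9.14 and 267 RPM in neighboring cells. By DRaqL-Smart-seq2 they were 148, 801 and 2715 RPM against 0, 2.97 and 156 RPM, so the ranges overlapped only at their edges. In freshly dissociated cells they were 74.1, 3306 and 13977 RPM against 0, 10.98 and 411 RPM. Cells from sections and cells that were never fixed thus showed the same order, although 62.1% of all genes were called higher in the dissociated set.

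In the other laser-captured sets the medians stood in the same order. By DRaqL-SC3-seq the median was 78.1 RPM in non-neighboring and 0 in neighboring cells, and single cells of both kinds reached over 1000 RPM (highest 3265 and 1152). In the same-mouse laser-captured cells the median was 25.2 against 0 RPM, and in formalin-fixed cells 950 against 22.9 RPM. By DRaqL-SMART-Seq v4 it was 220 against 0 RPM. SMART-Seq v4 without DRaqL stood apart, with 5.84 ± 4.20 in 17 neighboring and 6.10 ± 4.21 in 17 non-neighboring cells, a difference of 0.26, far under the SDs over cells. Its neighboring cells had a median of 181 RPM, the highest of any neighboring group.

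Over all data sets, at least 5 reads of Hsd3b1 were found in 50 of 161 neighboring cells (31.1%, 95% Clopper-Pearson interval 24.0 to 38.8) and in 129 of 169 non-neighboring cells (76.3%, 69.2 to 82.5). Such intervals cover counting error only, since cells of 1 mouse are not independent. No read of Hsd3b1 was seen in any of 81 mESCs. Leaving out the collagen cells kept the differences between 2.70 and 7.04 in the same 7 data sets (2.89 in the same-mouse laser-captured cells, whose mean then fell under the minimum of 4), and turned that of SMART-Seq v4 to −0.81. Leaving out the dissociated cell that went against its label gave 6.70, and keeping dissociated cells of at least 100000 reads gave 7.48.

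**Figure D1:**
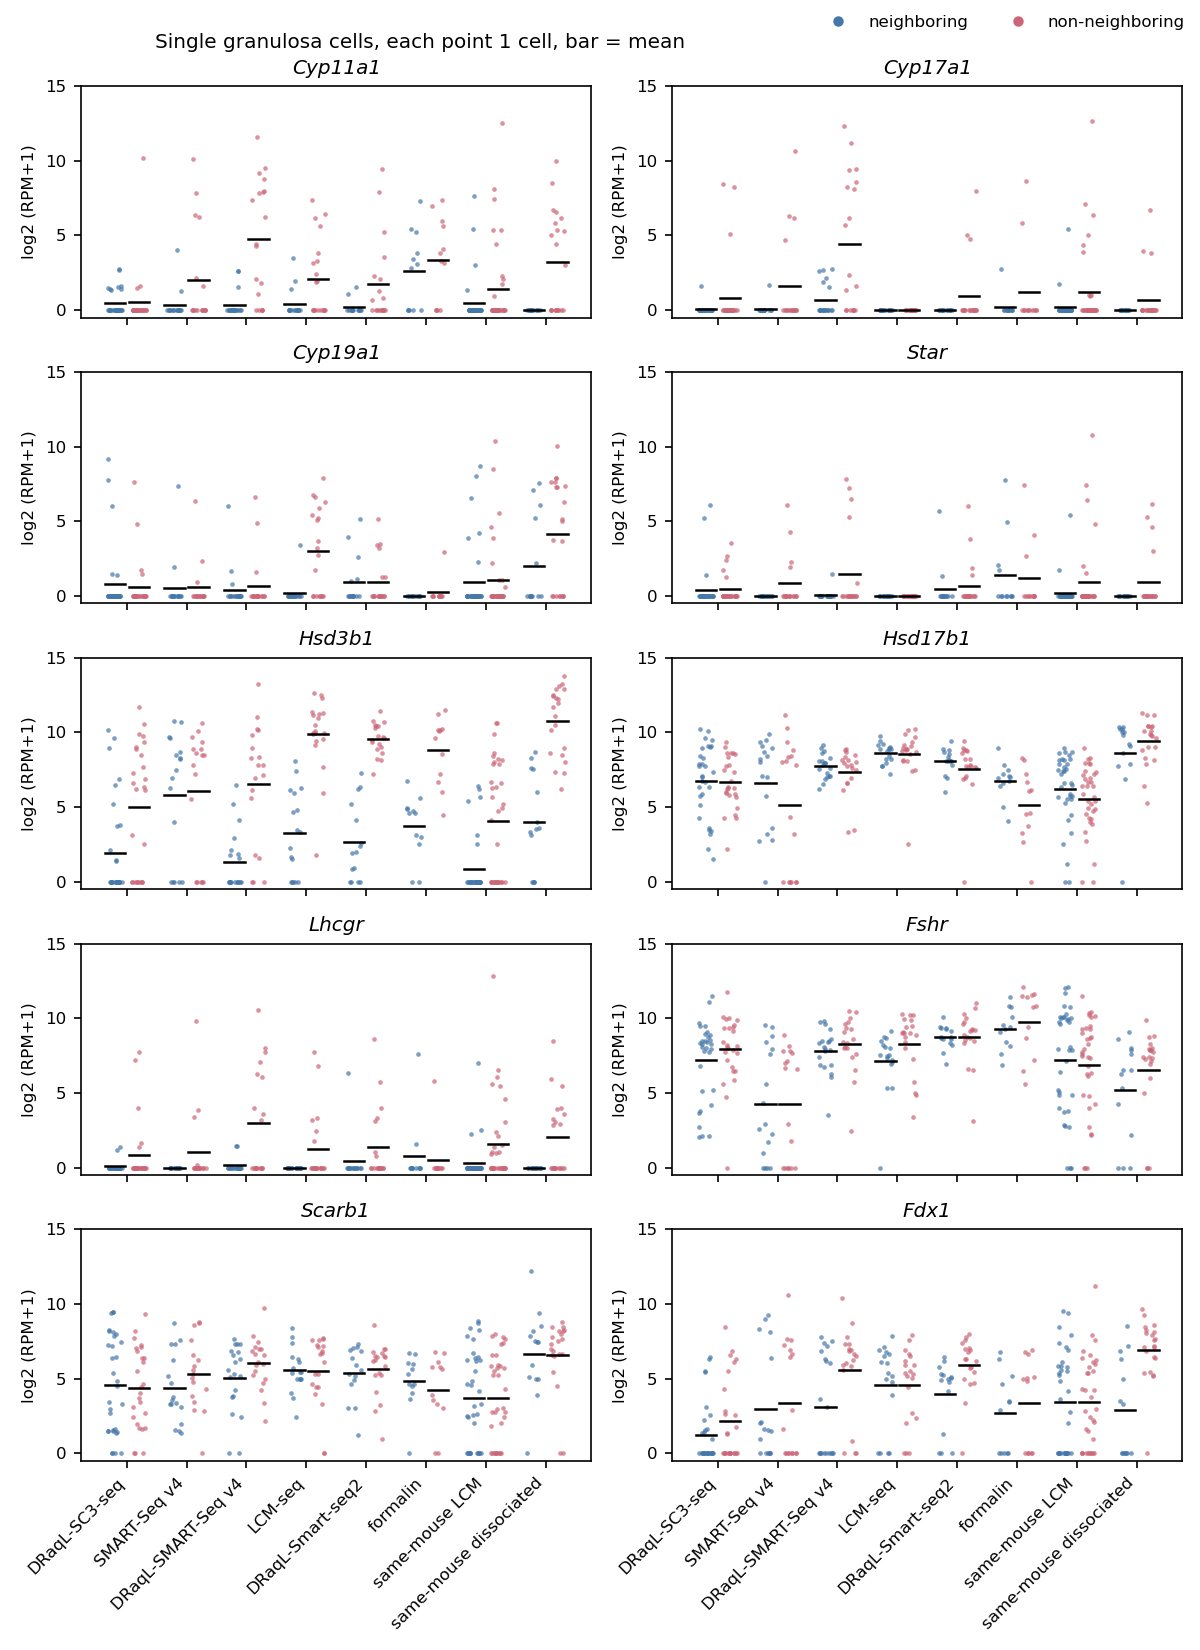
Level of each of the 10 genes, as log2 (RPM+1), in single neighboring and non-neighboring granulosa cells of the 8 data sets. Each point is 1 cell and each bar is the mean of its group, and the mean of Hsd3b1 is higher in non-neighboring cells in every data set, by 0.26 to 6.90, although single cells overlap.

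Cyp11a1, the enzyme that starts steroid synthesis, was found at 5 or more reads in few cells, most of them non-neighboring, and at 1 read or more in 29 neighboring (18.0%) and 71 non-neighboring cells (42.0%). At least 5 reads were found in 41 of 169 non-neighboring cells (24.3%, 18.0 to 31.4) and in 6 of 161 neighboring cells (3.73%, 1.38 to 7.93). The mean differed by 0.05 (DRaqL-SC3-seq) to 4.40 (DRaqL-SMART-Seq v4) and was higher in non-neighboring cells in 8 of 8 data sets. Only the difference by DRaqL-SMART-Seq v4 passed the size call, with 4.74 ± 3.99 in 19 non-neighboring and 0.34 ± 0.85 in 20 neighboring cells. There the levels ran from 0 over 20.0 to 3045 RPM in non-neighboring cells and up to 5.03 RPM in neighboring cells.

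Some of these sums rested on 1 cell. By DRaqL-SC3-seq, cell 002 held 99.6% of the Cyp11a1 reads of the non-neighboring group, at 1152 RPM. In the same-mouse laser-captured set, cell 9 held 4623 of 4918 reads, at 5826 RPM. In other sets the reads were spread: 7 of 20 non-neighboring LCM-seq cells and 8 of 21 dissociated ones had at least 5, with highest levels of 166 and 997 RPM. The highest dissociated cell was number 12, which went against its label, and without it the difference of 3.19 became 2.85.

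Cyp17a1, the androgen-forming enzyme, was found at 5 or more reads in 28 of 169 non-neighboring cells (16.6%, 11.3 to 23.05) and in 0 of 161 neighboring cells, which allows a share of up to 1.86% by the limit of 3 counts and 2.27% by the Clopper-Pearson bound. It was not read in any mESC. The size call was passed by DRaqL-SMART-Seq v4 alone, with 4.45 ± 4.51 in non-neighboring and 0.68 ± 1.09 in neighboring cells, and 10 of its 19 non-neighboring cells had at least 5 reads. No read was found in any of the 37 LCM-seq cells. In the same-mouse laser-captured set cell 9 held 98.9% of the reads, at 6412 RPM.

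Lhcgr, the receptor for luteinizing hormone, was found at 5 or more reads in 29 of 169 non-neighboring cells (17.2%, 11.8 to 23.7) and in 3 of 161 neighboring cells (1.86%, 0.386 to 5.35). Its difference ran from −0.28 in formalin-fixed cells to 2.83 by DRaqL-SMART-Seq v4, and it reached the mean needed for a call in none of the 8 data sets. The highest levels were 7338 RPM in same-mouse laser-captured cell 9 and 1497 RPM in a DRaqL-SMART-Seq v4 cell. Star, the cholesterol carrier, was rarer still, with at least 5 reads in 14 non-neighboring (8.28%) and 5 neighboring cells (3.11%). It also reached the mean for a call in no data set, and no read of it was found in the LCM-seq cells.

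The cells that held these 4 genes were also read for fibrous tissue and for Fshr. Of the 28 non-neighboring cells with Cyp17a1, 18 were collagen cells, as were 19 of the 41 with Cyp11a1, 16 of the 29 with Lhcgr and 7 of the 14 with Star. The same held for 30 of the 129 cells with Hsd3b1, where 32 of all 169 non-neighboring cells were collagen cells. Cyp17a1, Lhcgr and Cyp11a1 were found together: 21 cells held Cyp17a1 with Cyp11a1, 20 held Cyp17a1 with Lhcgr, and 19 held Lhcgr with Cyp11a1. In neighboring cells the last pair was found in 1 cell.

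Most of these cells had granulosa genes as well. Fshr was at 5 or more reads in 23 of the 28 cells with Cyp17a1, 32 of the 41 with Cyp11a1 and 22 of the 29 with Lhcgr. Among all non-neighboring cells it was so in 144 of 169 (85.2%). Inha ran from 239 over a median of 2479 to 13337 RPM in the 28 cells with Cyp17a1. The extremes differed. Same-mouse laser-captured cell 9, DRaqL-SMART-Seq v4 cell 9 (5020 RPM of Cyp17a1) and SMART-Seq v4 cell 1 (1598 RPM) held high Cyp17a1 with 3.78, 4.59 and 0 RPM of Fshr. DRaqL-SMART-Seq v4 cell 13 held 663 RPM of Cyp17a1 with 1374 RPM of Fshr and a collagen sum of 40.1 RPM. Whether the RNA of a captured cell came from 1 cell or from several was not tested.

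Data sets differed in this respect. Collagen cells were 9 of 19 non-neighboring cells by DRaqL-SMART-Seq v4 (47.4%), 7 of 19 by DRaqL-Smart-seq2 (36.8%), 4 of 12 after formalin (33.3%) and 5 of 17 by SMART-Seq v4 (29.4%), but 2 of 20 by LCM-seq, 2 of 26 by DRaqL-SC3-seq, 2 of 35 in the same-mouse laser-captured and 1 of 21 in the dissociated cells. These shares are not at equal depth. Median depth of non-neighboring cells ran from 132194 reads (dissociated) to 918348 reads (DRaqL-Smart-seq2), and the rule counts reads. Without the collagen cells, the DRaqL-SMART-Seq v4 differences went from 4.40 to 1.33 for Cyp11a1, from 3.77 to 1.01 for Cyp17a1 and from 2.83 to 0.48 for Lhcgr, and the calls of Cyp11a1 and Cyp17a1 were lost. By LCM-seq, none of the 7 non-neighboring cells with Cyp11a1 was a collagen cell, and the difference of 1.70 became 1.94 without the collagen cells. LCM-seq cell 12 held 166 RPM of Cyp11a1, 241 RPM of Cyp19a1, 5796 RPM of Hsd3b1 and 528 RPM of Fshr with a collagen sum of 0. LCM-seq cell 3 held a collagen sum of 3582 RPM with no read of Cyp11a1 or Cyp17a1.

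**Figure D2:**
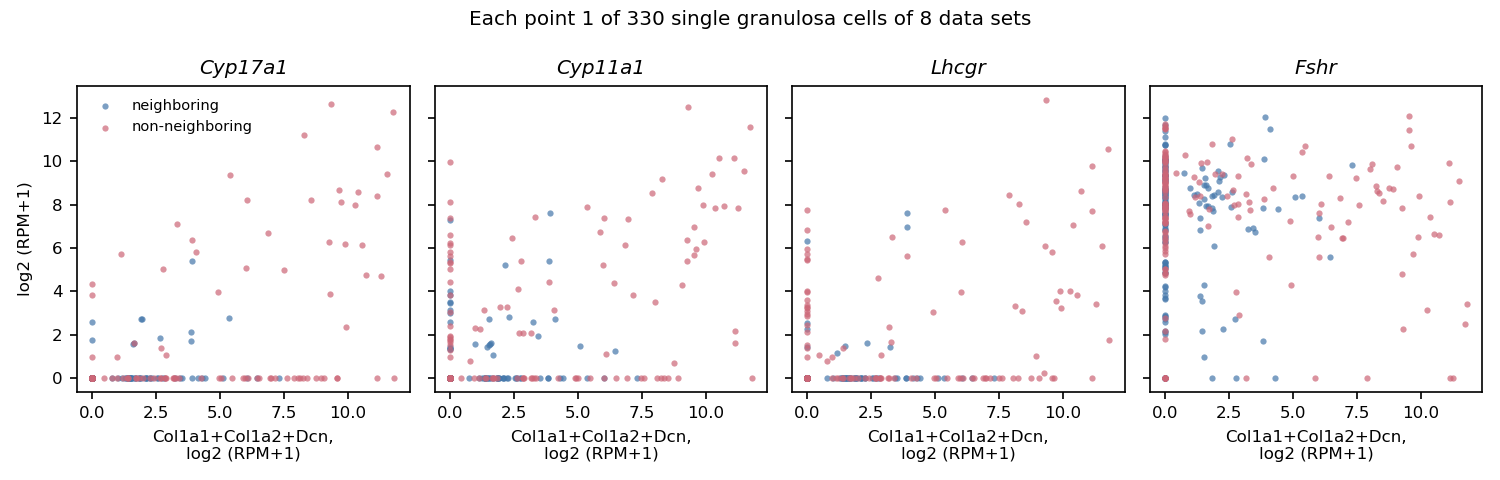
Levels of Cyp17a1, Cyp11a1, Lhcgr and Fshr against the summed level of Col1a1, Col1a2 and Dcn in 330 single granulosa cells, both axes as log2 (RPM+1), 1 point per cell, colored by position. Of the 28 non-neighboring cells with 5 or more Cyp17a1 reads, 18 were collagen cells, and Fshr ranges from 0 to high levels at both low and high collagen sums (0 RPM at sums of 2244 and 2462 RPM, and 984 RPM at 2216 RPM).

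Cyp19a1, the estrogen-forming enzyme and a mark of granulosa cells under follicle-stimulating hormone, was found at 5 or more reads in 15 of 161 neighboring (9.32%, 5.31 to 14.9) and 31 of 169 non-neighboring cells (18.3%, 12.8 to 25.0). Nearly all of these cells held Fshr, 14 of 15 and 31 of 31, where 131 of 161 neighboring and 144 of 169 non-neighboring cells did. Freshly dissociated cells passed the size call with 4.14 ± 3.61 in 21 non-neighboring against 2.01 ± 3.04 in 14 neighboring cells. By LCM-seq the difference was 2.83, from 0.20 ± 0.83 to 3.03 ± 2.90, under the mean needed for a call. In the other 6 data sets the difference lay between −0.23 and 0.27, and medians were 0 RPM at both positions.

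Aromatase was not evenly spread among the cells of a set. In dissociated non-neighboring cells it ran from 0 over 31.5 to 1048 RPM, and 10 of 21 cells had at least 5 reads. In same-mouse laser-captured cells, from the other ovary of that mouse, 4 of 35 non-neighboring cells had them, with a highest level of 1317 RPM. These 2 sets differ in follicle stage, medium, fixation, lysis, amplification and depth, which cannot be told apart here. Without the collagen cells the differences became 2.33 (dissociated) and 3.06 (LCM-seq).

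Hsd17b1, the enzyme that completes estradiol, was read in nearly every granulosa cell. At least 5 reads were found in 145 of 161 neighboring (90.1%, 84.4 to 94.2) and 143 of 169 non-neighboring cells (84.6%, 78.3 to 89.7), and in none of the mESCs. By the difference of means it was the only member with lower calls in non-neighboring cells, by SMART-Seq v4 (6.61 ± 3.03 to 5.17 ± 4.35) and after formalin (6.77 ± 1.25 to 5.12 ± 2.45). Formalin-fixed levels ran from 16.1 over 126 to 491 RPM in neighboring and from 0 over 45.2 to 308 RPM in non-neighboring cells. Without the collagen cells the difference by SMART-Seq v4 went from −1.44 to −0.98 and its call was lost, and that after formalin stayed at −1.66. By the ratio of summed counts neither was called (0.977 and 0.849), and the lower calls were Cyp19a1 by DRaqL-SC3-seq (0.334) and Scarb1 in dissociated cells (0.332). In the other 6 data sets it was between −0.64 and 0.78.

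Fshr was likewise read at both positions, at 5 or more reads in 131 of 161 neighboring (81.4%, 74.5 to 87.1) and 144 of 169 non-neighboring cells (85.2%, 78.9 to 90.2). It passed the size call upward by LCM-seq (7.13 ± 2.11 to 8.29 ± 2.00) and in dissociated cells (5.17 ± 3.32 to 6.55 ± 2.91), and differed by −0.36 to 0.71 elsewhere, although by DRaqL-SMART-Seq v4 the difference of 0.46 became 1.06, a call, without the collagen cells. By LCM-seq its levels were 0, 184 and 577 RPM (lowest, median and highest) in neighboring and 9.63, 519 and 1261 RPM in non-neighboring cells. In dissociated cells they were 0, 84.1 and 550 RPM and 0, 166 and 940 RPM, and both ranges overlapped widely. A read of Fshr alone carries little weight, since 71.1% of fresh mESCs had one at their depth (6.67% once thinned to 100000 reads), but only 2 of 45 had 5.

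Scarb1 and Fdx1, which serve cells beyond the ovary, were read in both kinds of cell and in mESCs. Scarb1 was at 5 or more reads in 100 of 161 neighboring and 124 of 169 non-neighboring cells, and its difference lay between −0.60 and 1.02, with 1 call, by DRaqL-SMART-Seq v4. Fdx1 was called higher in 3 data sets, from 3.11 ± 3.37 to 5.58 ± 3.06 by DRaqL-SMART-Seq v4, from 3.96 ± 2.35 to 5.90 ± 1.88 by DRaqL-Smart-seq2 and from 2.91 ± 3.30 to 6.96 ± 2.05 in dissociated cells. In the last set its levels were 0, 142.9 and 820 RPM in non-neighboring against 0, 4.48 and 371 RPM in neighboring cells. Both DRaqL-SMART-Seq v4 calls were lost without the collagen cells (0.54 for Scarb1 and 0.93 for Fdx1), whereas the Fdx1 differences of 1.43 by DRaqL-Smart-seq2 and 3.97 in dissociated cells still passed.

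**Figure D3:**
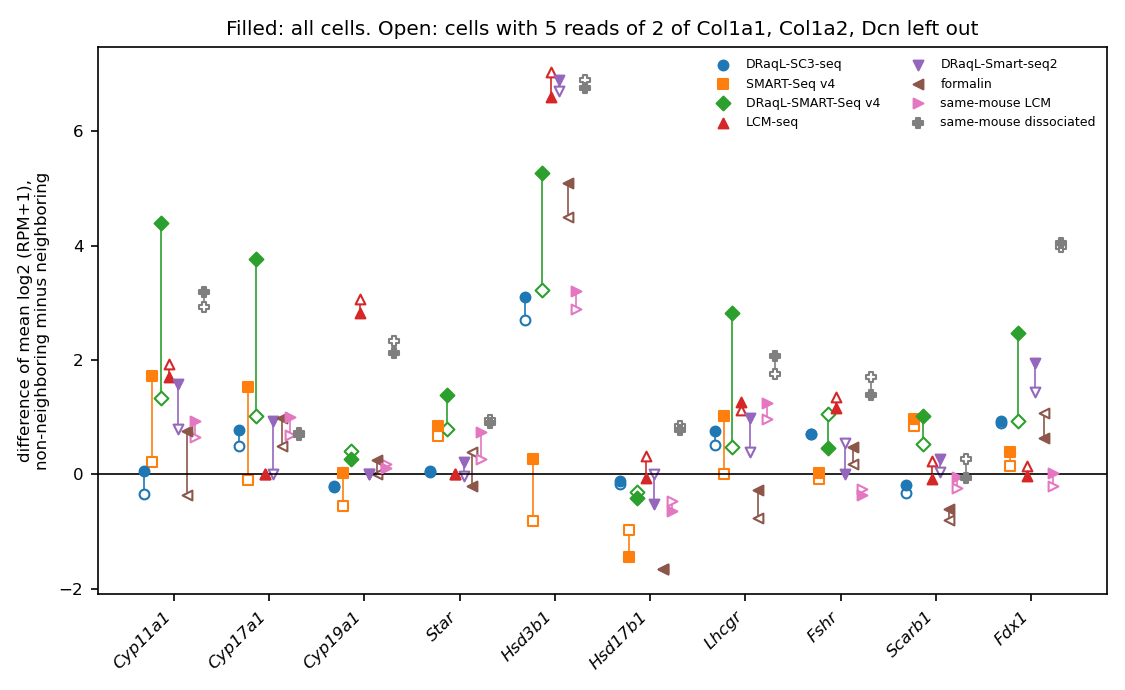
Difference of mean log2 (RPM+1), non-neighboring minus neighboring granulosa cells, for each of the 10 genes in the 8 single-cell data sets, with filled symbols for all cells and open symbols without the collagen cells. Over all cells, Hsd3b1 lies between 0.26 and 6.90 in every data set, and Hsd17b1 between −1.66 and 0.78.

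The number of the 5 steroid enzymes (Cyp11a1, Cyp17a1, Cyp19a1, Hsd3b1 and Hsd17b1) with at least 1 read in a cell was higher on average in non-neighboring cells in 8 of 8 data sets. It went from 2.00 ± 0.97 to 3.37 ± 1.01 by DRaqL-SMART-Seq v4, from 1.94 ± 0.75 to 3.10 ± 0.72 by LCM-seq and from 2.00 ± 0.88 to 3.29 ± 0.72 in dissociated cells, all without a test. By SMART-Seq v4 it was 1.94 ± 0.66 and 2.12 ± 1.50, well within the spread. At least 3 enzymes were read in 16 of 20 non-neighboring against 4 of 17 neighboring LCM-seq cells and in 19 of 21 against 4 of 14 dissociated cells. Dissociated non-neighboring cells were deeper (median 132194 against 87883.5 reads), and 62.1% of all genes were called higher there. By LCM-seq they were the shallower ones (358916 against 483469 reads). A like count over all genes was not made, and Hsd17b1 was read in nearly every cell. Without the collagen cells the mean was higher in 6 of 8 data sets. Of the 50 neighboring cells with 5 or more reads of Hsd3b1, 45 also held Hsd17b1 and 41 held Fshr at that level. Among all 161 neighboring cells, 145 held Hsd17b1 and 131 held Fshr.

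Pools of about 10 cells allowed a test over samples, since 7 libraries stand for each position. The labels name no mouse or follicle for them either, so that p-values measure the spread between these libraries. Fewer cells of a type and less RNA per cell cannot be told apart in a pool. None of the 8 members that passed the filter on low counts was called by edgeR's quasi-likelihood test at an adjusted p under 0.05, where 0.94% of 11917 genes were called in either direction, 0.0923% higher and 0.848% lower. At an unadjusted p under 0.05 there were 2 members, Cyp11a1 and Cyp17a1, and 1069 genes in all. DESeq2 called 0 members too.

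Hsd3b1 was at 1840, 253, 0, 0, 0.238, 8.71 and 0 RPM in neighboring pools 01 to 07 and at 1322, 1607, 734, 40.2, 471, 4327 and 94.5 RPM in non-neighboring pools 01 to 07. It was found in every non-neighboring pool, and 5 of the 7 neighboring pools were under the lowest of them, but the groups overlapped. The log2 fold change was 2.41 ± 1.46 (SE, adjusted p = 0.689, edgeR, with 0.0890 to 0.840 over the alternatives). Weighing the pools equally on the log2 (RPM+1) scale, the mean differed by 5.86, with p = 0.0140 by a two-sided exact permutation test of this gene alone, unadjusted and not planned.

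Cyp11a1 and Cyp17a1 were nearly absent from 6 of the 7 neighboring pools. Cyp11a1 was at 42.5, 0.451, 0.137, 0, 0, 0 and 0 RPM in neighboring and at 501, 490, 7.21, 0, 63.3, 294 and 0 RPM in non-neighboring pools. Cyp17a1 was at 47.8, 0.226, 0.137, 0, 0, 0 and 0 RPM and at 235, 296, 150, 0, 62.3, 606 and 0 RPM. Both were at 0 in non-neighboring pools 04 and 07, so the groups overlapped at the low end.

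The log2 fold changes were 5.34 ± 1.93 for Cyp11a1 (adjusted p = 0.275, edgeR) and 5.19 ± 1.96 for Cyp17a1 (adjusted p = 0.323, edgeR). Neighboring pool 01 decided these calls: without it, both were called, at adjusted p = 0.0152 and 0.0151 (edgeR), in a fit that called 99 genes higher and 142 lower over all. That pool was also the 1 neighboring pool with connective tissue reads, a sum of Col1a1, Col1a2 and Dcn of 1230 RPM against at most 0.451 RPM in the other 6. Non-neighboring pools had sums of 3170, 1849, 288, 1.09, 125, 301 and 3.28 RPM, and the lowest of them, pools 04 and 07, were those at 0 for Cyp11a1 and Cyp17a1. Hsd3b1 was also lowest among non-neighboring pools in 04 and 07 (40.2 and 94.5 RPM) and highest among neighboring pools in 01 (1840 RPM). Neighboring pool 02, however, held 253 RPM of Hsd3b1 at a sum of 0.451 RPM. Leaving out the 3 pools over 1000 RPM also called both genes, at adjusted p = 0.0486 and 0.0389 (edgeR). The exact permutation test of each gene alone, two-sided and unadjusted, gave p = 0.0379 for Cyp11a1 and 0.0216 for Cyp17a1, where the smallest p it can give is 0.000583. That permutation test was not planned and was run for all 10 members. Apart from Hsd3b1, the other members gave p = 0.262 or more by it. The part of theca RNA in the differences of Hsd3b1, Cyp11a1 and Cyp17a1 was not tested.

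Lhcgr followed the same pools, at 129, 0.226, 0, 0, 0.238, 0 and 0 RPM in neighboring and 53.3, 39.4, 0, 0, 46.8, 10.8 and 0 RPM in non-neighboring pools. Its log2 fold change was 0.52 ± 1.87 (adjusted p = 0.977, edgeR), and without neighboring pool 01 it was 7.96. Star was over 1 RPM in 2 of the 14 pools, neighboring 01 (11.4 RPM) and non-neighboring 07 (10.0 RPM), and did not pass the filter. Nor did Cyp19a1, which was at 1.21, 4.51, 0, 0, 16.2, 76.1 and 5.12 RPM in neighboring and at 0, 0, 0, 0, 0.176, 75.03 and 0 RPM in non-neighboring pools. Both pools numbered 06 were high in Cyp19a1, and both held Inhba, the activin and inhibin subunit, at 2407 and 4305 RPM. Summed blood and immune genes were at 1700 RPM in non-neighboring pool 06, 378 RPM in non-neighboring pool 01 and 131 RPM in neighboring pool 01.

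The granulosa genes were present in both groups of pools. Fshr was at 315, 230, 314, 97.8, 249, 794 and 239 RPM in neighboring and 216, 86.4, 307, 185, 352, 352 and 383 RPM in non-neighboring pools, with a log2 fold change of −0.20 ± 0.40. Hsd17b1 was at 78.9 to 322 RPM in neighboring pools, and in non-neighboring pools at 0.480 and 2.20 RPM in pools 01 and 02 but 130 to 392 RPM in the other 5. Those 2 pools were the ones highest in connective tissue genes and lowest in the summed granulosa markers (2508 and 3156 RPM). Scarb1 (0.24 ± 0.69) and Fdx1 (0.68 ± 0.92) also overlapped, and adjusted p-values of these 4 genes were 0.899 to 0.992 (edgeR).

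**Figure D4:**
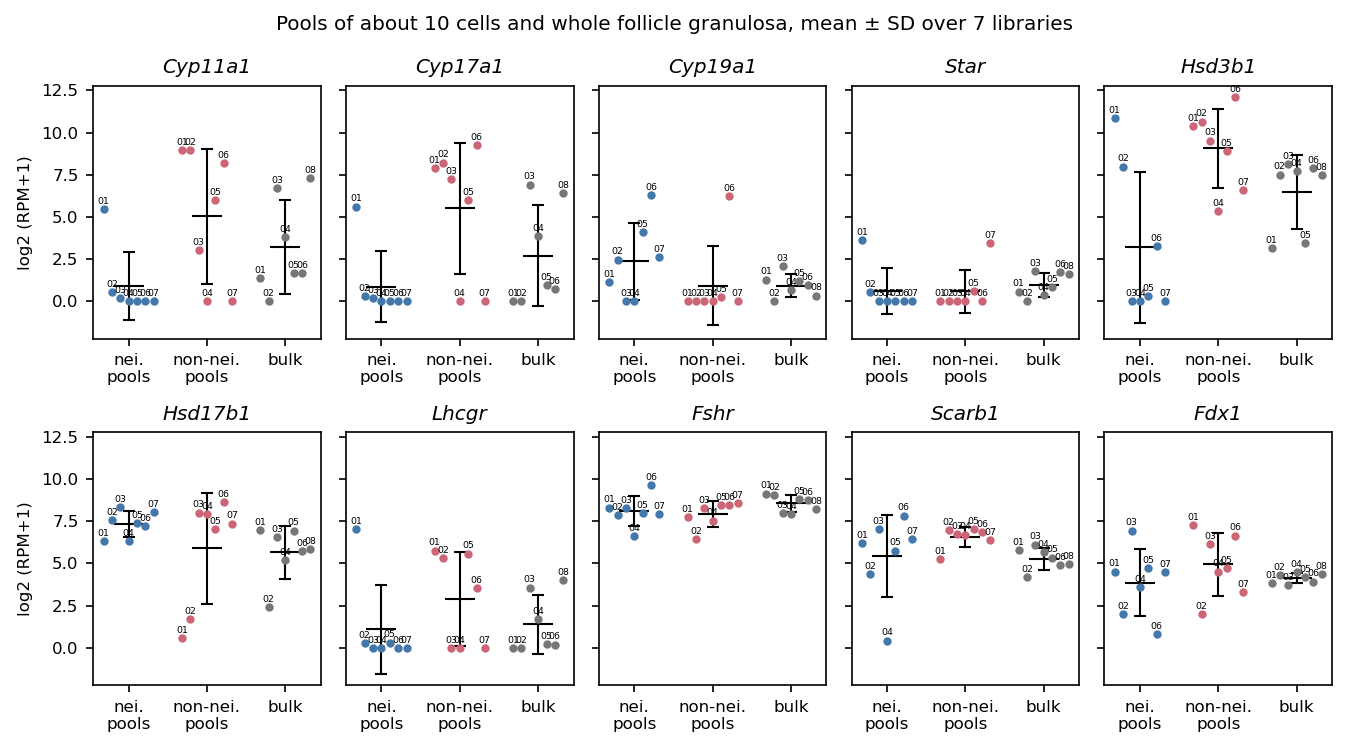
Level of each of the 10 genes, as log2 (RPM+1), in 7 neighboring pools, 7 non-neighboring pools and 7 bulk granulosa samples, with 1 numbered point per library and bars for mean ± SD. Hsd3b1 lies at 40.2 RPM or more in all 7 non-neighboring pools, and Cyp11a1 and Cyp17a1 are over 10 RPM in neighboring pool 01 alone of the neighboring pools.

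Bulk samples, which hold the whole granulosa layer cut from a section of 1 follicle (of unidentified stage for some), were compared with the mean of both kinds of pool, and share them with the comparison above. None of the 8 members was called in either direction by edgeR, where 0.101% of genes were called higher and 0% lower, and 743 genes but 0 members had an unadjusted p under 0.05. DESeq2 called 0 members as well. Fshr was at 560, 537, 256, 244, 451, 434 and 299 RPM in the bulk samples 01 to 06 and 08, and its log2 fold change was 0.47 ± 0.34. Hsd3b1 was at 7.99 to 275 RPM (−1.81 ± 1.31), Hsd17b1 at 4.35 to 123 RPM (−1.36 ± 0.75), Scarb1 at 17.4 to 68.2 RPM (−1.18 ± 0.63) and Fdx1 at 12.0 to 21.2 RPM (−1.39 ± 0.85). Cyp19a1 was at most 3.19 and Star at most 2.39 RPM.

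The theca-linked genes split the bulk samples as they did the pools. Cyp17a1 was at 119, 13.7 and 84.9 RPM in samples 03, 04 and 08 and under 1 RPM in the other 4, and Cyp11a1 at 102.8, 12.98 and 155 RPM in the same 3 and at most 2.21 RPM in the others. Lhcgr was at 10.8, 2.21 and 14.9 RPM there and at most 0.158 RPM elsewhere. Samples 03, 04 and 08 were also those with connective tissue sums of 132, 94.7 and 142 RPM, against at most 2.69 RPM in the other 4. The part of that RNA in these values was not tested.

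Oocytes and mESCs give the levels outside granulosa cells. Fdx1, the electron donor, was the member read in the most oocytes. It was in 14 of 14 fully grown oocytes (6.15 ± 0.33, 42.3 to 96.2 RPM) and, by DRaqL-SC3-seq, in 30 of 30 oocytes of secondary to early antral follicles (4.81 ± 0.72) and 13 of 14 of primary follicles (2.78 ± 1.45). Levels in mESCs were 1.54 ± 1.55 in fresh and 2.19 ± 2.06 in laser-captured cells. Scarb1 was also read in nearly all oocytes, at 2.58 to 5.86 on the log2 scale by group.

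Cyp19a1 was read in 13 of 14 fully grown oocytes, at 0 to 29.3 RPM with a median of 10.7. By DRaqL-SC3-seq it was read in 18 of 30 oocytes of secondary to early antral and 3 of 14 of primary follicles, with 1.60 ± 1.59 and 0.16 ± 0.31. In oocytes cut into serial sections, both sections had at least 5 reads in 6 of 8 oocytes. Cyp11a1 was in 19 of 30 and 6 of 14 of the DRaqL-SC3-seq oocytes, at up to 15.4 and 1.35 RPM. Hsd3b1 had the opposite order there, with 3.80 ± 1.63 in primary (14 of 14 read, median 15.0 RPM) and 1.46 ± 1.86 in secondary to early antral follicles (16 of 30). By SMART-Seq v4 the 2 stages were at 4.17 ± 2.92 and 4.65 ± 1.95, so that order did not recur. Inha, a granulosa gene, had medians of 15.1 to 472 RPM in the oocyte groups, and the part of granulosa RNA in these values was not tested. Cyp17a1 was at most 8.74 RPM in oocytes apart from 1 primary oocyte by DRaqL-SMART-Seq v4 at 205 RPM, in a group whose highest Cyp11a1 was 255 RPM.

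**Figure D5:**
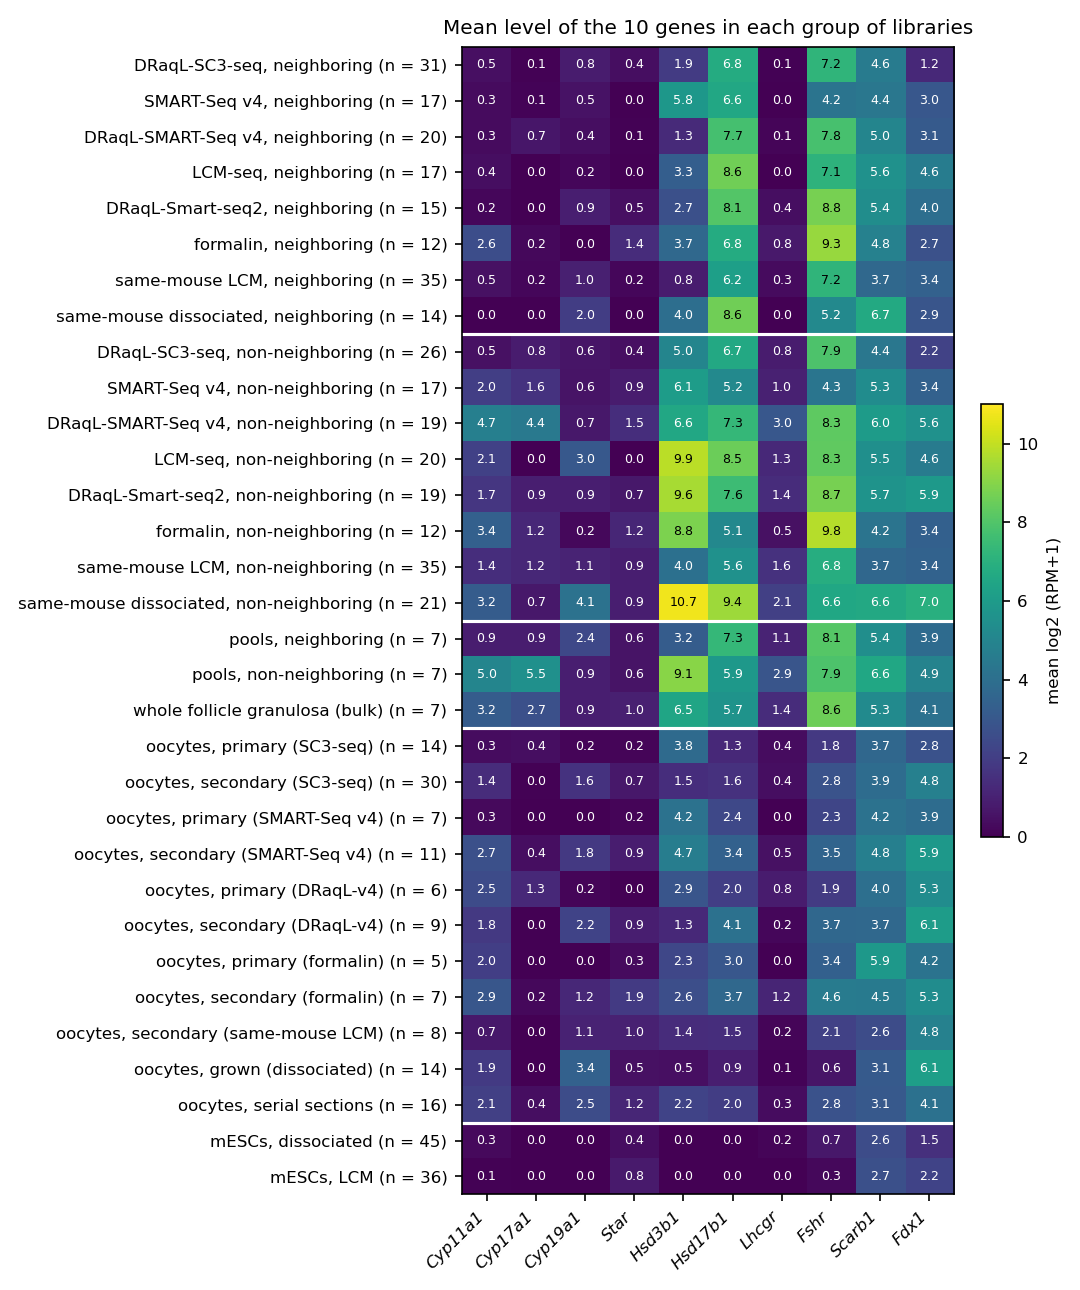
Mean log2 (RPM+1) of each of the 10 genes in every group of libraries, granulosa cells by data set and position, pools, bulk samples, oocytes and mESCs. Fshr and Hsd17b1 have means above 4 in every granulosa group and Hsd3b1 in every non-neighboring one, whereas Cyp17a1 passes 4 in the DRaqL-SMART-Seq v4 non-neighboring cells and the non-neighboring pools alone.

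Another 65 genes of the pathway were read from a list of cholesterol transfer, electron donors, other steroid enzymes, nuclear receptors and gonadotropin signalling. Of these, 52 were tested in pools and bulk samples, and 0 were called in either direction in either comparison. Their median log2 fold change was 0.45 in pools (0.02 for all genes) and 0.01 in bulk samples (−0.09 for all genes). In single cells, 21 to 34 genes of the list passed the mean in each data set. In 7 data sets 3 to 8 of them were called higher and 1 to 6 lower, where 6.28 to 26.7% and 6.46 to 25.8% of all genes were. Higher calls were 3 of 22 by DRaqL-SC3-seq (21.7% of all genes) and 6 of 21 by SMART-Seq v4 (26.7%). By DRaqL-SMART-Seq v4 they were 7 of 32 (18.6%), by LCM-seq 7 of 33 (8.23%) and by DRaqL-Smart-seq2 8 of 34 (6.28%). Formalin gave 5 of 33 (13.2%) and same-mouse laser capture 4 of 24 (15%). In dissociated cells the count was 24 higher and 0 lower of 30, against 62.1% and 2.78%. Named after their values were seen, Prkar2b, a regulatory subunit of protein kinase A, and Soat1, which esterifies cholesterol for storage, were each called higher in non-neighboring cells in 6 of 8 data sets, with median differences of 1.50 and 1.17. Inhba was called higher in all 3 data sets where its mean sufficed (median 4.32), as were Prlr, the prolactin receptor (1.43), and Hsd17b11 (1.77). Esr1, an estrogen receptor, was called lower in 4 of 5 (−1.76) and the transcription factor Runx1 in 3 of 4 (−2.72). How many of all genes were called as often was not counted. The calls of Prkar2b, Soat1 and Inhba include the dissociated cells, where 62.1% of all genes were called higher. Those of Esr1 and Runx1 came from data sets where 11.8 to 25.8% of all genes were called lower.

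The genes whose group means were most like those of a member were found by Pearson's r over 32 groups, among 11586 genes, as a description. Groups of 1 data set share their method and 1 kind of cell, so the groups are not independent. For Cyp17a1 they were Myl9 (0.91), Bgn (0.91) and Col3a1 (0.90), of smooth muscle and matrix. For Hsd17b1 they were Car14 (0.95), Slc38a5 (0.93) and the gap junction gene Gja1 (0.93), and for Fshr they included Dsp and Spsb1 (each 0.95). Hsd3b1 had Anxa3 (0.86), Clu (0.82) and Dhrs7 (0.81), and Cyp11a1 had Prlr (0.77), Col4a1 (0.76) and Abat (0.76). For Cyp19a1 they were Gch1 (0.76), Masp1 (0.68) and Lpl (0.67), for Scarb1 Bmp3 (0.82), Mgst1 (0.80) and Rcn3 (0.80), and for Fdx1 Smim11 (0.81), Spata24 (0.79) and Lama4 (0.79). Among the members, the closest pairs were Hsd17b1 with Fshr (0.85), Cyp17a1 with Lhcgr (0.83) and Hsd17b1 with Scarb1 (0.78), and Cyp19a1 with Fshr stood at 0.01.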

How the data were processed

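Read counts per gene were deposited by the authors, who trimmed reads with fastp 0.20.0 and cutadapt 1.16, mapped them to the mouse genome GRCm38 with HISAT2 2.1.0 and counted reads within 10 kb of annotated 3′ ends with HTSeq 0.10.0. All gene count tables come from 3′ libraries without molecular identifiers. In tables that also list other genes (45905 in all), these took a median of 24.5 to 33.7% of reads, so that levels were set to RPM (reads per 1000000) over the 22060 protein-coding genes. Exon, junction and spike-in counts were not used here. The 3 DRaqL-SC3-seq cells with mixed profiles were left out, but dissociated cells with such profiles were kept. Total reads per library limit the precision of low values. Groups were read from the labels.

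Single cells were compared as means of log2 (RPM+1) with a pseudocount of 1, without a test, because the labels name no mouse. Pools and bulk samples were tested in 1 fit over all 11917 genes past edgeR's filter on low counts (edgeR 4.0.16, quasi-likelihood test, Benjamini-Hochberg adjustment, R 4.3.3), and single genes by exact permutation (scipy 1.17.1). The code was tested on simulated data. Alternatives were DESeq2 1.42.0, other scalings, pseudocounts of 0.1 and 10, no filter, thinning to 100000 reads, the replicate block, and leaving out each library, collagen cells, collagen-high pools or cells with oocyte RNA. Named genes were all 10 members, the pathway genes called in pools or bulk samples (there were 0), the 3 genes most like each of the 8 members with a group mean of 4 or more, and markers beside the results; 1 gene so chosen is not reported here. Pathway genes of single cells were named after their values were seen. The members and lists were chosen with earlier results of these data known. No 2 libraries of the 210 pairs among pools and bulk samples agreed within sampling noise (smallest chi-square per degree of freedom 16.5).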

Additional observations from a re-analysis of the deposited data

Results flagged for a closer look

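In the pools and bulk samples, 30 combinations of a gene and a group of 7 libraries were examined for a library far from the other 6 (a gap, relative to the whole range, above Dixon's 95% critical value). That value assumes normally spread levels, and some groups were mostly at 0, so no chance rate is given. In all, 8 such libraries were flagged. Levels are log2 (RPM+1). Of these, 4 are the same library, neighboring pool 01, which was the highest of its group for Lhcgr (7.02, next 0.31), Cyp17a1 (5.61, next 0.29), Cyp11a1 (5.44, next 0.54) and Star (3.63, next 0.54) and held the connective tissue reads described above. Non-neighboring pool 06 was high in Cyp19a1 (6.25, next 0.23), non-neighboring pool 07 in Star (3.46, next 0.61), and non-neighboring pool 01 was low in Scarb1 (5.26, next 6.36). Bulk sample 02 was low in Hsd17b1 (2.42, next 5.20).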

How the results depend on the processing

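In the pools, 2 members (Cyp11a1 and Cyp17a1) instead of 0 were called higher when the 3 collagen-high pools were left out (an alternative chosen after seeing the data), and 0 to 2 were called higher over the fits that each left out 1 library. Between single cells, the 16 higher calls became 37 by the ratio of summed counts, which 1 cell can decide and whose 2 lower calls are other pairs, and the 2 lower calls became 1 with a pseudocount of 10 or with the collagen cells left out. With DRaqL-SC3-seq cells GC001 to GC069 alone, 2 members instead of 1 were called higher. No other count of called members moved by more than 1.5 times.

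Directions changed, without passing the threshold, for Hsd17b1 in pools (−0.07; 0.25 without the collagen-high pools, −0.45 to 0.33 without single libraries), Fshr in pools (−0.20; −0.36 to 0.19), Cyp11a1 in bulk samples (0.36; −2.31 against non-neighboring pools alone, −0.67 to 3.09), Cyp17a1 in bulk samples (−0.08; 2.51 against neighboring pools alone, 3.12 without the collagen-high pools, −0.94 to 2.95) and Lhcgr in bulk samples (−2.11; 2.13 and −3.03 to 1.61). The cause was not tested.

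The pairing of pools by number was not shown: the deviations of same-numbered pools correlated at 0.00578 to 0.19. With a replicate block, 0 members, and 1 gene higher and 4 lower of all, were called, and Hsd3b1 was at 8.38 (adjusted p = 0.104, edgeR).

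Of all genes, 0.94% were called in pools, 11 of them higher, and 12 higher and 0 lower in bulk samples. DESeq2 gave 128 and 276 in pools and 50 and 40 in bulk samples. Bulk counts were 29 and 4 with totals only, 452 and 11 without the filter (20075 genes), 120 and 16 with all genes of the tables, 22 and 2 against neighboring pools, 0 and 0 against non-neighboring pools, and 99 and 28 without the collagen-high pools, where the pools gave 39 and 92. Leaving out 1 library gave 0 to 99 higher and 6 to 142 lower in pools (0 and 6 without neighboring pool 05), and 0 to 54 and 0 to 3 in bulk samples.

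Depth limits the genes at few reads (Star, Lhcgr, Cyp17a1), above all in the dissociated neighboring cells.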
